A study of Mus musculus with 6 samples.

Results

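Predicted small RNAs above background were described in 6 small RNA libraries from mouse pigment cells. The cells were melan-alpha, a skin melanocyte line that grows without limit in culture in RPMI with serum. Of the libraries, 3 came from cells that received mouse Mitf, the gene of the main transcription factor of pigment cells, through a lentivirus (MITF overexpression), and 3 were controls. What the controls received, and which promoter drove Mitf, the sources used here do not say, and this assay does not measure the Mitf transcript. Every library carries the label extracellular vesicle, whereas the extraction text speaks of collected and washed cells. In such bulk libraries, fewer vesicles holding an RNA and less of it in each vesicle cannot be told apart. The labels do not say that replicates were separate cultures, so the p-values rest on the spread among 6 libraries, which may be technical.

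The deposited table has 1560 rows, each a sequence with its reads in every library, and 837 of the rows have names that begin with PC-5p or PC-3p, the table's marks for predicted sequences. The members described here are the 105 of these with at least 10 reads in at least 3 of the 6 libraries. They were thus chosen by their raw read counts in these same libraries, and their abundance is given as a description. The rows just inside this limit were PC-3p-40206_67, at 21, 15 and 10 reads with MITF overexpression and 6, 7 and 8 in controls, PC-3p-54573_42, with 10, 16 and 16 against 0 in each control, and PC-3p-65743_31, with 0, 10 and 14 against 0, 12 and 5. Just outside it lay PC-3p-42769_61, at 25, 15 and 7 reads with MITF overexpression and 9, 5 and 0 in controls, PC-3p-44945_57, with 9, 6 and 23 against 0, 6 and 13, and PC-3p-53966_43, with 11, 0 and 9 against 7, 7 and 9.

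A microRNA is cut from the stem of a hairpin transcript by the nucleases Drosha and Dicer, and the product from either side of the stem is called the 5p or the 3p arm. The arm that is kept is loaded into an Argonaute protein and guides it to messenger RNAs with matching sites. Programs that predict microRNAs look for reads that fall in a sequence able to fold as a hairpin, and short fragments of ribosomal, transfer or other RNAs, which are common in vesicle preparations, can meet that criterion. A predicted row is therefore a small RNA sequence with an arm label and not an established microRNA.

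The libraries held 279142 to 448969 tabulated reads with MITF overexpression and 342941 to 475977 in controls, which was 4.90 to 5.63% and 4.49 to 4.69% of the reads the authors called valid. Levels are given as a share of tabulated reads or as CPM, reads scaled to a common library total with edgeR's TMM factors. The 4 marker microRNAs of melanocytes, from miR-211 and miR-204, were all present, with summed levels of 4564 to 5947 CPM with MITF overexpression and 1976 to 2771 CPM in controls, although miR-204-5p was listed at 0 in all controls and in MITF overexpression replicate 3. The liver microRNA miR-122-5p stood at 22727 to 102960 CPM against 8848 to 16385 CPM. Of 9 blood cell markers 8 were present, with sums of 4790 to 8735 CPM against 1645 to 2562 CPM, and 1 of them, miR-142a-3p, was listed at 0 in all controls. The endothelial miR-126a-3p ranged over 1540 to 7771 CPM against 1661 to 1779 CPM, and the 3 keratinocyte markers together over 44 to 174 CPM against 0 to 128 CPM. Levels of the melanocyte, blood cell and liver markers thus all moved with the groups, and the part of these sources in the results below was not tested.

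The members as a class made up 23.7, 29.3 and 26.5% of tabulated reads with MITF overexpression and 17.8, 25.6 and 26.8% in controls. The means were 26.5 ± 2.81% and 23.4 ± 4.89% (SD, n = 3 each), and the groups overlapped, with a two-sided exact permutation p of 0.5. With 3 libraries against 3 such a test cannot go below 0.1. Control replicate 1 was the lowest library, and without it the difference between the means fell to 0.295 percentage points, against 3.10 with it. Taken as a share of valid reads, the class stood at 1.33, 1.43 and 1.32% with MITF overexpression and 0.798, 1.17 and 1.26% in controls, and here the groups did not overlap. As a share of raw reads they did overlap, at 0.758, 0.747 and 0.809% with MITF overexpression and 0.478, 0.698 and 0.783% in controls. The 732 predicted rows below the limit added little, since all predicted rows together made up 27.1 ± 2.89% and 23.5 ± 4.95% of tabulated reads (SD, n = 3 each). Mouse-named rows at the same limit, 291 in number, held 70.3 ± 3.07% and 73.6 ± 5.72%.

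Within the class total, the shares of the 2 most abundant rows lay in opposite directions between the groups. PC-5p-6_325944, a row of 19 bases with the 5p label, was the most abundant row of any kind in every library and took, of all tabulated reads, 16.4, 20.7 and 19.7% with MITF overexpression against 8.02, 15.6 and 16.1% in controls. PC-3p-53_79276, a row of 21 bases with the 3p label, took 4.30, 4.43 and 3.69% with MITF overexpression against 6.92, 6.14 and 7.24% in controls. As shares, neither row's groups overlapped, the first being higher and the second lower with MITF overexpression, each with an exact permutation p of 0.1. Without control replicate 1 the difference in the share of PC-5p-6_325944 was 3.06 percentage points, against 5.66 with all libraries. The 103 other members together made up 2.99, 4.17 and 3.16% with MITF overexpression and 2.83, 3.83 and 3.47% in controls, with an exact permutation p of 0.9. The members without the most abundant row took 7.58 ± 0.913% of all tabulated reads with MITF overexpression against 10.1 ± 0.500% in controls (SD, n = 3 each). These groups did not overlap. The total here still counts the reads of PC-5p-6_325944, so a higher share of that row by itself lowers the share of the rest. The share with that row taken out of the total as well was not tested. Over the 9 measures of the class tested in this way, the lowest Benjamini-Hochberg adjusted exact p was 0.129.

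**Figure D1:**
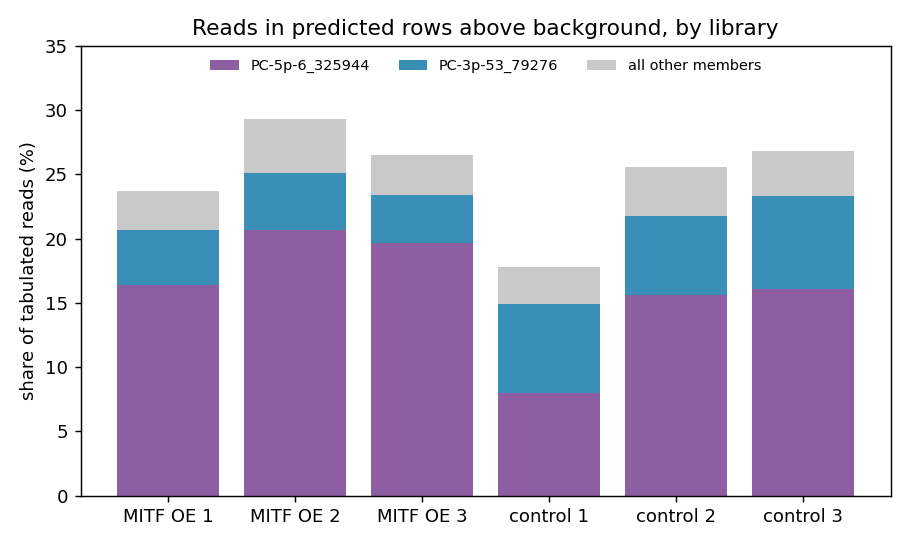
Share of tabulated reads (y axis, percent) held by the members in each library (x axis), split into the most abundant row, the second row and the other 103 members; MITF OE is MITF overexpression. The bottom segment is 16.4 to 20.7% with MITF overexpression and 8.02 to 16.1% in controls, while the middle one is 3.69 to 4.43% and 6.14 to 7.24%.

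On the TMM scale PC-5p-6_325944 stood at 167966, 195774 and 175863 CPM with MITF overexpression and at 89969, 155632 and 172713 CPM in controls. Here the groups overlapped, because MITF overexpression replicate 1 lay below control replicate 3. Its log2 fold change was 0.37 ± 0.25 (SE), and it did not pass the quasi-likelihood test of edgeR (Benjamini-Hochberg adjusted p = 0.348 over all 441 tested rows, threshold 0.05). That log2 fold change was 0.10 without control replicate 1 and 0.61 without control replicate 3, and the row passed in neither fit. PC-3p-53_79276 stood at 44154, 41976 and 32997 CPM with MITF overexpression against 77562, 61219 and 77785 CPM in controls. All libraries with MITF overexpression lay below all controls, and the log2 fold change of -0.86 ± 0.21 (SE) passed with an adjusted p of 0.0236 by edgeR. In the authors' deposited table the fold changes of these rows were 1.32 and 0.560, with unadjusted p-values of 0.203 and 0.0202.

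Reads were concentrated in few members in each library. The top member of a library held 69.2, 70.6 and 74.2% of the class's reads with MITF overexpression and 45.2, 61.0 and 60.0% in controls. The top 5 held 92.1, 92.3 and 93.0% against 93.6, 92.0 and 92.6%, so this measure overlapped between groups, and the top 10 held 95.2, 95.6 and 95.6% against 96.9, 96.5 and 96.5%. Only 4 members had more than 10000 reads over the 6 libraries and 13 had more than 1000, while 35 had fewer than 100, and the median member had 172 reads in all.

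**Figure D2:**
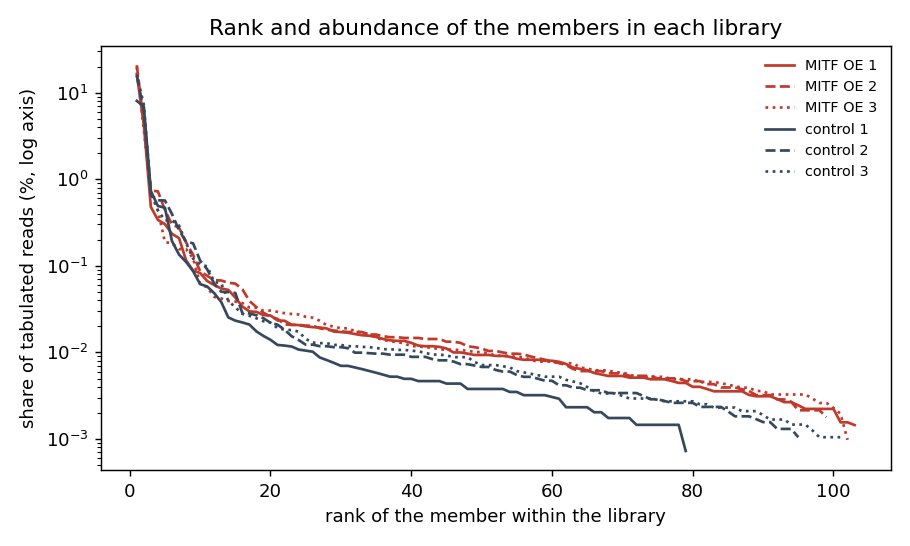
Share of tabulated reads (y axis, percent, log axis) of each member against its rank within the library (x axis), with 1 line per library and members at 0 left out. All lines drop steeply over the first ranks, and the line of control replicate 1 ends earliest, because 26 of its 105 members were listed at 0.

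The next 6 members by mean share stood far below the first 2. PC-3p-803_8799 had 4904, 7008 and 6171 CPM with MITF overexpression against 8183, 5662 and 7716 CPM in controls. PC-5p-1862_3957 had 3107, 6852 and 3894 CPM with MITF overexpression against 5251, 5691 and 4692 CPM in controls. Both pairs of groups overlapped, and neither row passed edgeR's test, with adjusted p of 0.484 and 0.722. PC-3p-1382_5364 had 3475, 4206 and 1681 CPM with MITF overexpression against 2168, 6548 and 3143 CPM in controls, and it was highest in control replicate 2. PC-5p-1443_5135 had 2149, 2619 and 1628 CPM with MITF overexpression against 1517, 2576 and 3604 CPM in controls. PC-5p-4946_1379 had 905, 1269 and 1088 CPM with MITF overexpression against 689.8, 1809 and 1298 CPM in controls. In these 3 rows the groups overlapped, and the adjusted p by edgeR was 0.623, 0.610 and 0.686. The remaining row of the 6, PC-3p-2077_3533, passed and is given with the rows that fell.

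By edgeR, 94 of the 105 members could be tested, and 7 of them rose and 6 fell. Over all tested rows 9.98% rose and 5.22% fell, and 13.8% of tested members were called in either direction against 15.2% of all tested rows. The share of members called was thus close to that of the table as a whole. The calls depended on single libraries. Without MITF overexpression replicate 3 no member was called by edgeR, although 27 members stood under 0.05 before adjustment, and the lowest member's adjusted p became 0.069. Without control replicate 2, 0 members rose and 1 fell, without MITF overexpression replicate 2, 1 rose and 1 fell, and without control replicate 3, 9 rose and 2 fell. With total-count scaling 14 rose and 4 fell. DESeq2 called 7 higher and 5 lower. The counts over all rows moved as well. They were 44 higher and 23 lower with all libraries, and 0 and 0 without MITF overexpression replicate 3. Without control replicate 2 they were 7 and 4, and without MITF overexpression replicate 2 they were 11 and 3. Without control replicate 3 they were 41 and 8. Total-count scaling gave 62 and 15 over all rows, and DESeq2 46 and 28.

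The 7 members that rose were low in abundance. PC-5p-12257_421 had 347, 641 and 333 CPM with MITF overexpression against 121, 60.0 and 138 CPM in controls, with a log2 fold change of 2.04 ± 0.40 (SE) and an adjusted p of 0.0211 by edgeR. PC-5p-10414_532, the most abundant of them, had 615, 821 and 553 CPM with MITF overexpression against 65.4, 282 and 300.3 CPM in controls, a 3.04-fold rise with an adjusted p of 0.0410. PC-5p-14524_325 had 240, 163 and 295 CPM with MITF overexpression against 42.5, 54.7 and 94.8 CPM in controls, a 3.59-fold rise. All libraries with MITF overexpression lay above all controls in these rows. PC-3p-12921_390 had 277, 197 and 345 CPM with MITF overexpression against 55.6, 88.6 and 94.8 CPM in controls, a 3.40-fold rise. PC-3p-13876_349 had 306, 173 and 248 CPM with MITF overexpression against 36.0, 80.8 and 94.8 CPM in controls, also a 3.40-fold rise. In both, MITF overexpression replicate 2 was the lowest library of its group and still stood above every control. PC-5p-17758_237 had 139, 136 and 246 CPM with MITF overexpression against 49.0, 46.9 and 76.8 CPM in controls, a 2.99-fold rise. PC-3p-25550_134 had 178, 136 and 146 CPM with MITF overexpression against 71.9, 36.5 and 31.6 CPM in controls, a 3.32-fold rise. Of the 14 alternatives, PC-3p-25550_134 lost its call under 8, PC-5p-10414_532 and PC-5p-17758_237 under 7 each, and the other 4 rows under 3 to 5. Across the 7 rows a library held 40 to 269 reads of a row with MITF overexpression and 11 to 133 in controls. Together the 7 rows made up 0.205, 0.239 and 0.242% of tabulated reads with MITF overexpression and 0.0394, 0.0651 and 0.0773% in controls. They measured 18 to 20 bases, and 4 had the 5p and 3 the 3p label.

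The 6 members that fell included abundant rows. After PC-3p-53_79276 came PC-3p-2077_3533, with 2398, 2819 and 1392 CPM with MITF overexpression against 5506, 3960 and 3595 CPM in controls, a log2 fold change of -0.98 ± 0.29 (SE) and an adjusted p of 0.0450 by edgeR. It lost its call under 8 of 14 alternatives, among them each of the 6 fits that left out a library. PC-5p-3479_2078 had 848, 726 and 506 CPM with MITF overexpression against 1239, 1893 and 1974 CPM in controls and fell 2.45-fold. PC-5p-4382_1600 had 542, 604 and 377 CPM with MITF overexpression against 974, 1142 and 1059 CPM in controls and fell 2.09-fold. No library with MITF overexpression reached the lowest control in these rows. PC-3p-8037_759 had 213, 91.6 and 178 CPM with MITF overexpression against 647, 620.4 and 357 CPM in controls, a 3.33-fold fall with an adjusted p of 0.0211. PC-3p-12341_416 had 142, 109 and 114 CPM with MITF overexpression against 196, 485 and 237 CPM in controls, a 2.51-fold fall with an adjusted p of 0.0450. That row lost its call under 10 of 14 alternatives, and PC-3p-53_79276, PC-5p-3479_2078, PC-5p-4382_1600 and PC-3p-8037_759 under 4 each. The 6 rows together took 4.71, 4.89 and 3.97% of tabulated reads with MITF overexpression and 7.68, 6.95 and 7.91% in controls, most of it in PC-3p-53_79276. They measured 18 to 21 bases, and 2 had the 5p and 4 the 3p label.

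**Figure D3:**
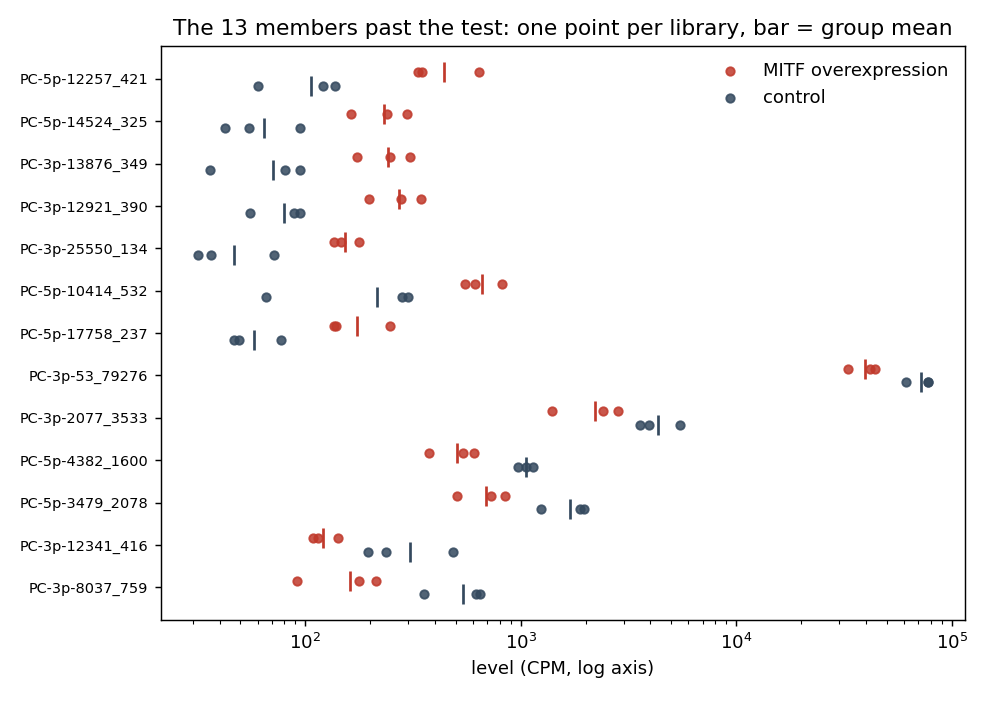
Level of the 13 members past edgeR's test (x axis, CPM, log axis), with 1 point per library, a vertical bar at the group mean (n = 3), and rows ordered from the largest rise to the largest fall. In each row the points of the groups do not overlap, and the 7 rows at the top lie below 1000 CPM, whereas PC-3p-53_79276 lies at 32997 to 77785 CPM.

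Called or not, more members had a higher than a lower level with MITF overexpression. Among tested members 62 had a positive and 32 a negative log2 fold change, with a median of 0.68, against a median of 0.08 over all tested rows, and 0.83 against 0.24 with total-count scaling. The groups did not overlap in 36 members that were higher with MITF overexpression and in 11 that were lower, which was 38.3% and 11.7% of tested members, against 25.2% and 17.2% of all tested rows. The rule bears on these counts, because 9 members reached 10 reads in all 3 libraries with MITF overexpression and in no control, and no member reached it in the reverse way. Among the 87 tested members that reached 10 reads in at least 1 library of each group, the median log2 fold change was 0.54, with 55 positive and 32 negative values. Groups did not overlap in 29 of the 87 that were higher and 11 that were lower. That was 33.3% and 12.6%, against the 25.2% and 17.2% of all tested rows. Split by total reads, the 53 members at or above the median member had a median log2 fold change of 0.23, with 30 positive and 23 negative values, and all 13 calls were among them. The 41 tested members below it had a median of 0.92, with 32 positive and 9 negative values, and no call by edgeR. Among these 41 are the 7 tested members that reached 10 reads only with MITF overexpression, all of them positive. The rule therefore bears on this split too. In that set 12 had an unadjusted p under 0.05, and DESeq2 called 1 and limma on the deposited normalized values 4. Among the 51 members with at least 10 reads in all 6 libraries, a limit that leaves out rows low in either group, the median was 0.11. These 51 had 28 positive and 23 negative values and held all 13 calls. Their groups did not overlap in 31.4% that were higher and 17.6% that were lower. The 43 tested members at 10 reads in 3 to 5 libraries had a median of 1.16, with 34 positive and 9 negative values. At the same limit, 20 of 30 tested cow-named rows, 20 of 28 named after other mammals and 130 of 283 mouse-named rows had a positive log2 fold change. By abundance, the 10 members with the most reads had a median of -0.26, with 0 higher and 3 lower by edgeR, 4 with an unadjusted p under 0.05 and 4 called by DESeq2. The other tested members had a median of 0.87, with 7 higher and 3 lower by edgeR. They also include the 7 tested members that reached 10 reads only with MITF overexpression.

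Library by library, 55, 60 and 56 of the 105 members in MITF overexpression replicates 1, 2 and 3 lay above all controls, and 20, 17 and 22 lay below all controls. In control replicates 1, 2 and 3, 15, 21 and 24 members lay above all libraries with MITF overexpression, and 67, 54 and 45 lay below them. Leaving out the 9 members that reached 10 reads only with MITF overexpression, 46, 51 and 47 of 96 lay above all controls and 20, 17 and 22 below, while 15, 21 and 24 in controls lay above all libraries with MITF overexpression and 58, 45 and 36 below. Libraries of a group are set against the same 3 libraries, so these counts are not independent of each other. In mouse-named rows at the same limit, 104, 97 and 84 of 291 lay above all controls with MITF overexpression and 108, 123 and 114 below. In control replicates 1, 2 and 3, 119, 86 and 95 mouse-named rows lay above all libraries with MITF overexpression, and 79, 77 and 78 below. Members listed at 0 numbered 2, 6 and 3 with MITF overexpression and 26, 10 and 4 in controls. In control replicate 1 that was 24.8% of members, against 4.47% of mouse-named rows in the same library, and 18 members were at 0 there and in no other library. A listed 0 need not mean an absent sequence, because values above 0 and below 5 reads were rare in the table, at 160 of 4437 values above 0. Without control replicate 1 the median log2 fold change of the members was 0.41, and 8 rose and 5 fell.

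**Figure D4:**
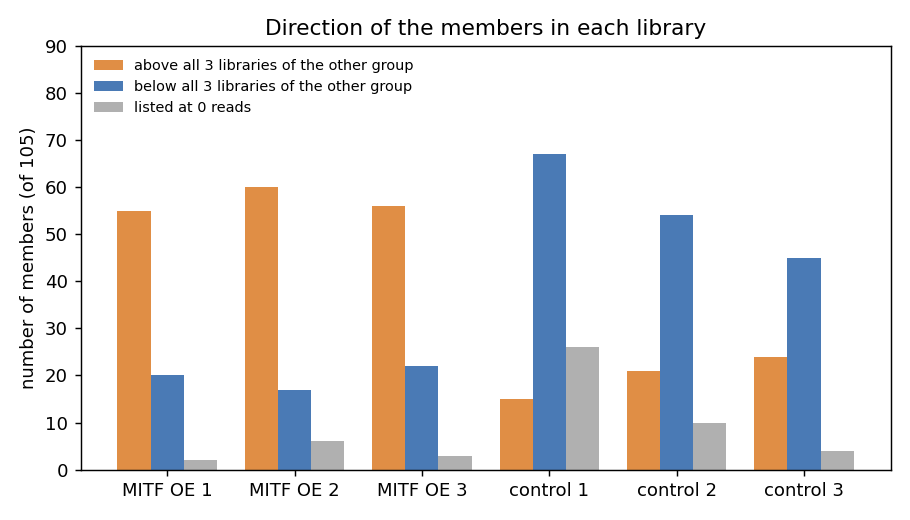
Number of the 105 members (y axis) that in each library (x axis) lay above all 3 libraries of the other group, lay below all 3, or were listed at 0 reads, by CPM. With MITF overexpression 55 to 60 members lay above all controls, and control replicate 1 had the most members at 0, 26 in number.

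The 11 untested members had 33 to 96 reads over the 6 libraries. Their groups overlapped in 8, and in the other 3 MITF overexpression was higher. PC-3p-54573_42, with the reads given above, was the only member listed at 0 in all libraries of a group, and it was not tested.

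The members were short. Their length ran from 18 to 22 bases with a median of 19, and 59 of 105 were 19 bases long. Rows of 20 bases or fewer made up 92.4% of members and 84.4% of predicted rows below the limit, against 12.7% of mouse-named rows at the limit, whose median was 22 bases. Cow-named rows at the limit had a median of 21 bases, and rows named after other mammals one of 19. The median share of G and C was 40.0% in members and 47.8% in mouse-named rows. The first base was A in 39 members and T in 36, which was 37.1% and 34.3%, against 28.5% and 36.4% of mouse-named rows. These are counts of rows without a test. Members of 18 or 19 bases had a median log2 fold change of 0.78 and those of 20 to 22 bases one of 0.65, and 5 of 66 and 2 of 28 tested rows rose, so length did not set the called rows apart by count.

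**Figure D5:**
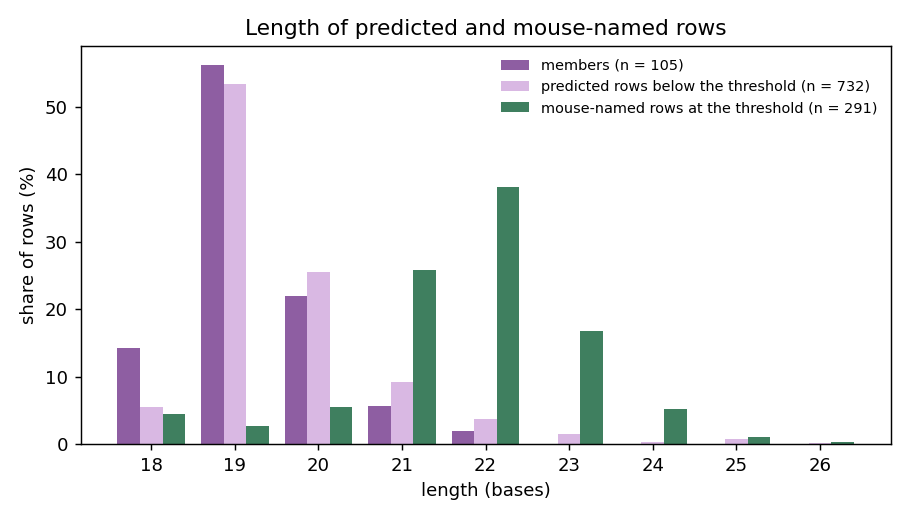
Length in bases (x axis) of the 105 members, the 732 predicted rows below the limit and the 291 mouse-named rows at the limit, as a share of the rows of each set (y axis, percent). Both predicted sets peak at 19 bases, with 56.2% of members and 53.4% of the rows below the limit, and mouse-named rows peak at 22.

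Weighted by reads, the members were shorter with MITF overexpression in these libraries. The read-weighted mean length was 19.44, 19.40 and 19.37 bases with MITF overexpression and 19.92, 19.56 and 19.63 bases in controls, so MITF overexpression was lower in every library, with an exact permutation p of 0.1. With the most abundant row left out it was 20.41, 20.36 and 20.42 bases against 20.68, 20.44 and 20.57 bases. That remainder still holds PC-3p-53_79276, of 21 bases, whose mean share of tabulated reads was 4.14% with MITF overexpression and 6.77% in controls. All other members together held 3.44% and 3.38%. The mean length without both leading rows was not tested. Rows of 19 bases held 74.8, 76.1 and 78.4% of the class's reads with MITF overexpression and 49.8, 67.7 and 65.2% in controls. With both leading rows left out, the same length held 44.6, 38.1 and 35.8% against 29.2, 44.5 and 40.4%, and the groups overlapped.

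The arm labels were nearly even by row and uneven by read. Of the members 49 had the 5p and 56 the 3p label, and 4 and 3 of their tested rows rose while 2 and 4 fell. The 5p rows held 74.7, 77.2 and 79.6% of the class's reads with MITF overexpression and 51.1, 67.7 and 66.0% in controls, with an exact permutation p of 0.1. Without the most abundant row the 5p share was 17.8, 22.4 and 20.9% with MITF overexpression against 10.9, 17.1 and 15.0% in controls, without overlap. With PC-3p-53_79276 left out as well, it was 43.5, 46.2 and 45.4% with MITF overexpression against 37.6, 44.5 and 46.4% in controls, and the groups overlapped. As a share of tabulated reads, the 3p rows took 5.99, 6.68 and 5.41% with MITF overexpression against 8.68, 8.27 and 9.10% in controls.

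Some members overlapped in sequence, so they need not be separate RNAs. Counting an overlap as at least 10 identical bases, with the end of one row matching the start of another or one row inside another, 10 members fell into 4 sets and 95 stood alone. In 3 of the 4 sets the overlapping rows carried different arm labels. PC-5p-6_325944 shared 14 bases with PC-5p-5036_1347, which had 686, 590.2 and 272 CPM with MITF overexpression against 428, 909.8 and 700.0 CPM in controls and a log2 fold change of -0.40 ± 0.37 (SE). PC-5p-1443_5135 shared 18 bases with PC-3p-30659_101. The largest set had 4 members, of which PC-5p-3479_2078 and PC-5p-4382_1600 fell, as given above. PC-5p-21146_181, which shares 17 bases with PC-5p-3479_2078, had 45.7, 74.6 and 29.2 CPM with MITF overexpression against 114, 93.8 and 131 CPM in controls, without overlap, but missed the threshold (adjusted p = 0.114 by edgeR). PC-3p-21525_176, which bridges the other rows, had 96.0, 153 and 40.9 CPM with MITF overexpression against 98.1, 73.0 and 117 CPM in controls, with a log2 fold change of 0.00. The calls of PC-5p-3479_2078 and PC-5p-4382_1600 are therefore not independent of each other if both are pieces of the same RNA, which was not tested.

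The last set joined PC-3p-24065_147 and PC-5p-39553_68 over 10 bases. PC-3p-24065_147 had 162, 163 and 90.6 CPM with MITF overexpression against 52.3, 67.8 and 24.8 CPM in controls, and PC-5p-39553_68 had 103, 71.2 and 55.5 CPM against 0, 18.2 and 11.3 CPM. In both rows all libraries with MITF overexpression were above all controls, but neither passed edgeR's test, with adjusted p of 0.0620 and 0.0596. A further pair, PC-5p-22278_166 and PC-3p-92327_18, matched over 20 bases on opposite strands, the relation that perfectly paired arms of a hairpin or the strands of a duplex would have. Their adjusted p was 0.447 and 0.617.

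Few members matched the mouse sequences they were compared with. None of the 105 lay within any of the 1005 microRNA hairpins of the RefSeq table on GRCm38.p6, exactly or with 1 mismatch, against exact matches for 228 of 291 mouse-named rows. Exact matches also numbered 0 of 32 cow-named rows and 0 of 35 rows named after other mammals at the limit. Rows carry the name of a known microRNA or the mark of a prediction, so these counts are tied to the naming and are no test. In the GENCODE M21 transcripts, 3 members matched in the sense and 1 in the antisense direction. That set holds 354 ribosomal RNA entries, the longest of 1849 bases, and 2 of mitochondria, but nothing longer of that class, and no sequence of another organism was compared, so a member without a match may still be a fragment of a known RNA. Per the file headers, the authors also matched reads to messenger RNA, Rfam and repeat sequences, and what that left out of the table was not tested. The sequences were compared with transcripts alone and not with the genome. PC-3p-39825_68 and PC-3p-36690_77 matched mt-Rnr1, the small ribosomal RNA of mitochondria. They stood at 81.0 ± 24.8 and 34.5 ± 7.41 CPM with MITF overexpression against 59.8 ± 38.5 and 36.2 ± 31.4 CPM in controls (SD, n = 3 each), and the groups overlapped in both. PC-5p-48493_50 matched Gm38297, a provisional gene model, and PC-3p-54573_42 matched the opposite strand of 4930435M08Rik. Of the other rows of the table, 1 mouse-named row, a variant of miR-6990-5p, shared 16 bases with the member PC-3p-56200_40, and 8 pairs joined 6 members to predicted rows below the limit.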

How the data were processed

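Per the file headers, the authors deposited for each library estimated counts of reads per row, which are fractional where a read is split among rows (7 members have such values). They also deposited normalized values, a signal in which each library's estimated counts share 1 divisor (checked on the file), with group means and, per row, a fold change and an unadjusted p-value. An overview, also deposited, gives each read class as a count and a percent of the total. Per the same headers, reads under 18 or over 26 bases were removed. The genome build was mm9, per the submitters' processing notes, and the sources used here name no aligner or predicting program. 4 empty lines of the table were not used.

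Estimated counts were rounded and tested over all rows with edgeR 4.0.16 in R 4.3.3 (TMM, filterByExpr with a minimum count of 10, quasi-likelihood test, group as the only term, Benjamini-Hochberg adjustment, threshold 0.05). The test was also run on simulated counts with known changes and the same spread setting for all rows. That run does not vouch for the calls in these libraries. Each SE given was derived from edgeR's test, as the absolute log2 fold change divided by the square root of the F statistic. DESeq2 1.42.0 and limma 3.58.1 on log2(normalized value + 1) were alternatives. For class measures, groups were compared by exact permutation of the libraries, two-sided. The depth of low rows, under 100 reads in all for 35 members, limits their precision. Rows named are the 8 most abundant members, all called members, those at 0 throughout a group and some nearest the limit, taken by name where counts tied. Rows named for overlaps or matches in sequence were chosen after their values were seen. The split by total reads, the counts without 9 members and the 5p share without both leading rows were added after seeing the data. The members and lists were chosen with earlier results of these data known.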

Additional observations from a re-analysis of the deposited data

Results flagged for a closer look

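The 732 predicted rows under the limit of 10 reads in 3 libraries are not members. Some of them entered edgeR's fit: with the limit at 5 reads, 9 predicted rows rose, against 7 members. Of the 732, 15 were above 0 in every library with MITF overexpression and at 0 in every control. The reverse held for 2. The 15 rows were picked out by this very pattern, as a signal outside the members that the controls lack. The same count was not made for low rows with other names. Whether the pattern is particular to predicted rows was therefore not tested. The 15 rows held 10 to 60 reads each over the 6 libraries. Predicted rows under the limit that were above 0 numbered 344, 270 and 217 with MITF overexpression and 38, 96 and 130 in controls. These counts rest on many low rows, and 520 predicted rows, which cannot be members, were above 0 in 1 library only. Such counts were not made for low rows with other names, and the source of the difference was not tested.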

How the results depend on the processing

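With the replicate block 0 members rose and 0 fell by edgeR (31 with an unadjusted p under 0.05), and 1 row rose and 1 fell over all rows. The numbers are not stated to pair the libraries, and same-numbered libraries correlated at -0.0477, 0.0418 and -0.0145 in their deviations from group means, with 1 of 3 correlating best with its own number. Under the block's sign-flip test the difference in class share kept its 3.10 percentage points, with an exact p of 0.5. Leaving out 1 library, members that rose ran from 0 to 9 and members that fell from 0 to 5, and over all rows the counts ran from 0 to 41 and from 0 to 23, around 44 and 23 with all libraries. Members that rose numbered 14 with total-count scaling and 14 with limma on normalized values. Rows that fell over all rows numbered 15 with total-count scaling, which shifted the median log2 fold change by 0.16, and 37 with the most abundant row left out, and calls that were higher made up 80.5% and 54.3%, against 65.7%. The cause was not tested. With 1 library left out, the log2 fold changes of 4 uncalled rows crossed 0: PC-5p-1862_3957 ran from -0.51 to 0.02, PC-3p-1382_5364 from -0.68 to 0.24, PC-5p-1443_5135 from -0.57 to 0.11 and PC-5p-4946_1379 from -0.55 to 0.15. The 5 class measures kept their direction under all alternatives run, including limits of 5 or 20 reads. Scaling from mouse-named rows alone was added after seeing the data and kept 11 of the 13 member calls.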
